A study of Mus musculus with 14 samples.

Results

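Adipocytes of the epididymal fat pad were compared with adipocytes of the inguinal fat pad in male C57BL/6 mice on a normal diet. The comparison used 6 of the 14 libraries of the series, 3 epididymal and 3 inguinal, chosen by their labels and numbered 0, 1 and 2 in each depot. All 13813 genes with at least 0.5 FPKM in at least 3 of the 6 libraries were tested, out of 38553 gene identifiers in the files. FPKM is fragments per kilobase of transcript, scaled by the mapped fragments of the library, so it can be compared between genes of different length. The normal diet was chow, given for 16 weeks from weaning at 3 weeks of age. The mice had no transgene or drug treatment in the labels. Pads were digested with collagenase for 20 min and the floating cell layer was taken, pooled from 3 to 5 mice per library. The series design calls the libraries biological triplicates, and p-values measure the spread between these pools. The 3 epididymal and 3 inguinal libraries from mice given a high-fat diet over the same 16 weeks share no library with this comparison, and they served as a second measurement of the depot difference.

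The epididymal pad is a visceral depot of the abdominal cavity. Its surface is covered by mesothelium, a flat epithelium that lines the body cavities, and its precursors share markers with that lining. The inguinal pad is a subcutaneous depot. It holds a lymph node and can form beige, heat-producing adipocytes. Adipocytes of different depots keep different sets of positional transcription factors, among them HOX genes, which mark position along the body axis, and T-box and homeobox factors. A floating layer is enriched for fat cells and can carry other cells that stick to them. In such bulk RNA, fewer cells of a type and less RNA per cell cannot be told apart.

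The floating layers carried the adipocyte markers, and the libraries differed in what they carried beside them. Adiponectin (Adipoq) stood at 919 to 2386 FPKM in the 6 libraries and all 19 mature adipocyte markers were above 0 in each. Inguinal replicates 0 and 2 held much lymphocyte RNA and inguinal replicate 1 held less. The summed FPKM of 15 B cell markers was 915, 105.9 and 912.9 in inguinal replicates 0, 1 and 2, against 13.8 to 32.23 in the epididymal libraries. Replicate 1 had the highest value of the 3 inguinal libraries for all 19 mature adipocyte markers, all 23 matrix genes, all 12 macrophage markers and 10 of 12 fibroblast and progenitor markers. The summed FPKM of the fibroblast and progenitor markers was 914.4, 2210 and 792.4 in inguinal replicates 0, 1 and 2. Mitochondrial mRNA made up 51.9, 20.5 and 60.5% of the summed FPKM of coding genes in these 3 libraries, against 40.1 to 66.5% in the epididymal ones. Correlations across genes (Spearman's rho, where genes are not independent replicates) ran from 0.948 to 0.971 within the epididymal group and from 0.837 to 0.909 within the inguinal group. Inguinal replicate 1 stood apart from its group: its rho was 0.883 and 0.837 with inguinal replicates 0 and 2, and 0.924, 0.937 and 0.910 with the 3 epididymal libraries. The 22 mitochondrial tRNA genes were all listed at 0 in the 3 epididymal libraries and inguinal replicate 0, while 14 and 15 of them were above 0 in inguinal replicates 1 and 2. Read depth was unknown, and 15560 to 18029 genes lay above 0 per library.

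**Figure D1:**
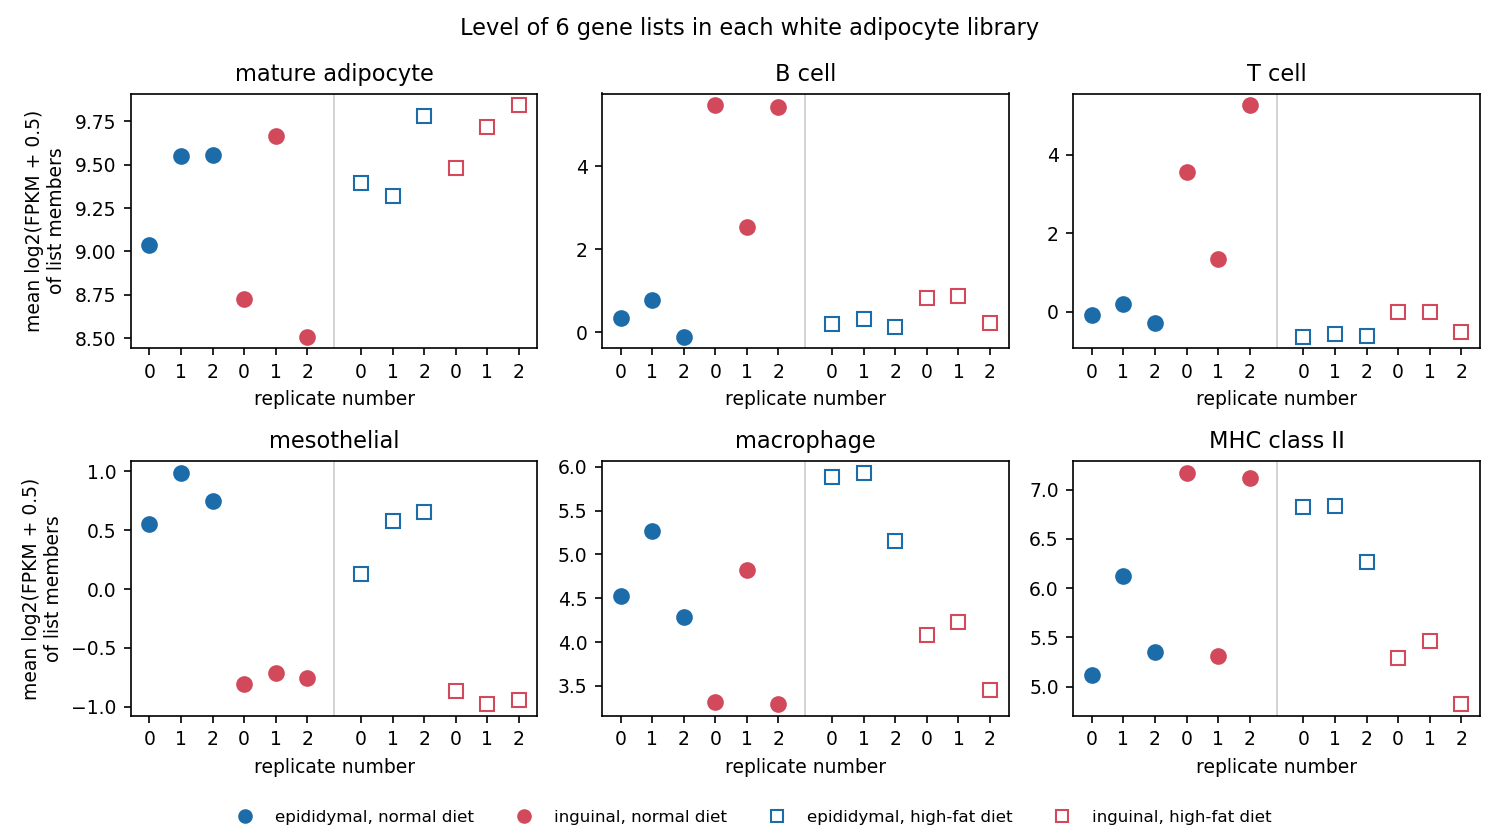
Mean log2(FPKM + 0.5) of the members of 6 marker lists (vertical axis, a scale per panel) in each white adipocyte library, 1 symbol per library, by replicate number (horizontal axis). The B cell and T cell lists stood high in inguinal normal-diet replicates 0 and 2, the mesothelial list stood higher in every epididymal library than in every inguinal one, and the mature adipocyte list was lowest in inguinal normal-diet replicates 0 and 2.

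Of the 13813 genes, 25 were higher in the epididymal libraries (0.181% of those tested) and 37 were higher in the inguinal libraries (0.268%). The test was limma on log2(FPKM + 0.5) as a two-sided test, and a call was an adjusted p below 0.05 by the method of Benjamini and Hochberg. The epididymal calls included mesothelial markers (Upk3b, Msln, Wt1), positional factors (Tcf21, Hoxc4), secreted proteins (Agt, Penk, C6) and myeloid genes (Ear2, Lyz1, Mmp12). The inguinal calls included B cell and other lymphocyte genes (Cd79a, Cr2, Ly6d, Fcmr), 8 antigen receptor segments, the positional factors Tbx15 and Hoxc10, the interferon factor Irf7 and the enzyme Cyp2f2. All 62 genes had no overlap between groups, a pattern that 9.01% of genes tested showed with epididymal and 10.6% with inguinal values higher. The median log2 difference of all genes was 0.01, and 2012 genes had an unadjusted p under 0.05. Leaving out any of the 3 epididymal libraries left 0 calls, with 1315 to 1605 genes at an unadjusted p under 0.05. Taking the spread from all 12 white libraries gave 373 epididymal (2.7%) and 663 inguinal (4.8%) calls, 7.5% of genes tested together, among them all 62. The inguinal normal-diet libraries correlated less with each other than the epididymal ones, so this shared spread can be too small for them. The test of a difference between the diets, used below, shares it. In 331 of the 663 (49.9%), inguinal replicates 0 and 2 were both at least 2-fold above replicate 1, against 8.83% of genes tested.

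**Figure D2:**
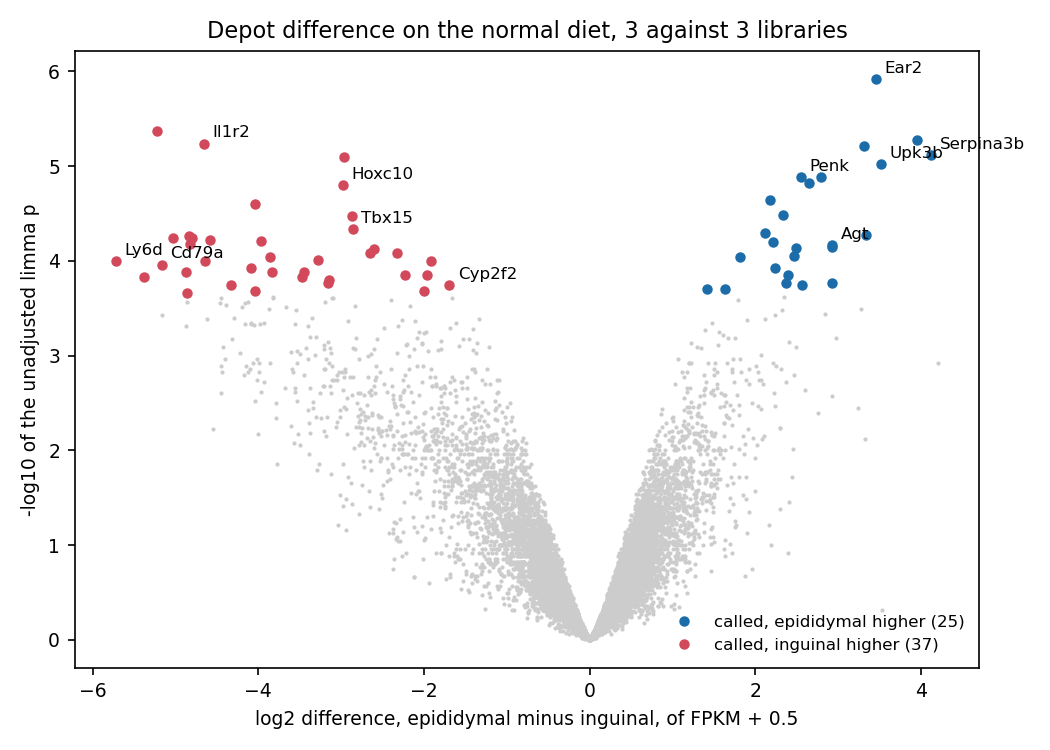
Log2 difference of FPKM + 0.5, epididymal minus inguinal (horizontal axis), against −log10 of the unadjusted limma p (vertical axis) for the 13813 genes tested on the normal diet. Blue points are the 25 genes called higher in epididymal and red points the 37 genes called higher in inguinal libraries. Ear2 had the smallest p of the epididymal calls, and the lymphocyte genes Ly6d and Cd79a lay at the far left.

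Mesothelial markers were higher in the epididymal libraries. Of 15 listed, 14 were in the files, 9 passed the filter on low values and 3 of these were called, all epididymal; 5 stayed below the filter, Calb2 at 0 in all 6 libraries. Upk3b (ENSMUSG00000042985, chromosome 5, 136038496 to 136044993 in GRCm38.p6), a uroplakin of the mesothelial surface, was at 3.41, 7.11 and 5.84 FPKM in epididymal replicates 0, 1 and 2 and listed at 0 in the 3 inguinal libraries. Its log2 difference, which the pseudocount sets for a gene listed at 0, was 3.52 (SE 0.38, limma adjusted p = 0.016). Msln, which encodes mesothelin, a surface protein of the lining, was at 1.69, 2.50 and 2.29 FPKM in epididymal libraries and listed at 0 in the inguinal ones (2.40, SE 0.37, adjusted p = 0.040). Wt1, also on the list and called, is described below. The other 6 tested markers, among them Lrrn4, had log2 differences from 0.92 upward and did not pass. The summed FPKM of the 14 markers was 17.51, 27.73 and 24.31 in epididymal and 1.153, 2.27 and 2.641 in inguinal libraries, with no overlap. In inguinal replicates 0, 1 and 2, 8, 10 and 12 of the 14 were listed at 0. The tested markers thus passed the filter mainly through the epididymal libraries, which largely sets their direction. The part of mesothelial cells in the other epididymal calls was not tested.

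The transcription factor Wt1, a listed marker of mesothelium that also marks visceral fat precursors, followed the mesothelial markers Upk3b and Msln on the normal diet. It did not follow Upk3b on the high-fat diet. Wt1 (chromosome 2, 105126529 to 105173614) was at 2.06, 2.23 and 2.50 FPKM in epididymal libraries and listed at 0 in inguinal ones (log2 2.46, SE 0.36, adjusted p = 0.036). On the high-fat diet it was at 0.289, 0.361 and 0.339 FPKM in epididymal libraries, where Upk3b was at 3.51, 4.20 and 6.74 FPKM. The Wt1 depot difference was larger on the normal than on the high-fat diet by 1.77 on the log2 scale (limma interaction adjusted p = 0.013), while for Upk3b this difference was 0.15 (adjusted p = 0.88). Of the 8 mesothelial markers tested on the high-fat diet, all 8 were called higher in epididymal libraries, where 15.2% of genes tested were. In the inguinal high-fat libraries 11 or 12 of the 14 markers in the files were at 0, with a summed FPKM of at most 1.169. Markers there passed the filter mainly through the epididymal libraries, which largely sets this direction, so 15.2% is no matching background.

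Positional factors other than Wt1 also separated the depots with higher epididymal values. Tcf21 (chromosome 10, 22817263 to 22820143), a basic helix-loop-helix factor of visceral mesenchyme, was at 2.25, 3.93 and 1.64 FPKM in epididymal libraries and listed at 0 in all 3 inguinal ones (log2 2.57, SE 0.41, adjusted p = 0.044). Hoxc4 (chromosome 15, 103018097 to 103036856), an anterior HOX gene of the C cluster, was at 8.90, 8.30 and 11.4 FPKM against 1.53, 2.51 and 1.02, 5.65-fold higher (2.24, SE 0.34, adjusted p = 0.040). In the high-fat libraries Hoxc4 was at 4.23 to 5.58 FPKM in epididymal and 1.72 to 2.28 FPKM in inguinal ones, and Tcf21 was at 0.0606 to 0.306 FPKM in epididymal and listed at 0 in inguinal ones. The summed FPKM of fibroblast and progenitor markers was 783.5 to 1362 in epididymal normal-diet and 294.3 to 458.6 in epididymal high-fat libraries. The part of these cells in Tcf21 and Hoxc4 was not tested.

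Of the 62 called genes, 38 have a promoter entry in RefSeq (GRCm38.p6), and 4 promoters are printed because their genes stand for the groups described here. These are Upk3b for the mesothelial markers, Tcf21 for the positional factors, Agt for secreted proteins and Cd79a for B cell genes. Each runs from 250 bases before to 50 after the gene's start, 5′ to 3′ on the gene's strand, with each CG in capitals.
Upk3b, chr5:136038246-136038545, + strand: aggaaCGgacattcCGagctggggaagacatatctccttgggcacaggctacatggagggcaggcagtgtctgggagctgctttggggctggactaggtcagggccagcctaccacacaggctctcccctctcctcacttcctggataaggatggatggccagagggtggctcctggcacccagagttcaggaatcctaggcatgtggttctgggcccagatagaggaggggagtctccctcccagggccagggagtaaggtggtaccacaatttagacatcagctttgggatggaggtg
Tcf21, chr10:22820094-22820393, − strand: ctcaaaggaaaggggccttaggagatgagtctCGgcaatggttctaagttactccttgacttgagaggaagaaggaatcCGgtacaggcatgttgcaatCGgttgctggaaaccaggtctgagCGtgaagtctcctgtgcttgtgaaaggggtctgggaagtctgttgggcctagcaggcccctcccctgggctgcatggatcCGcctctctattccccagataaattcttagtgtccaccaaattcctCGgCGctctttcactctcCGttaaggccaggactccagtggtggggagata
Agt, chr8:124569657-124569956, − strand: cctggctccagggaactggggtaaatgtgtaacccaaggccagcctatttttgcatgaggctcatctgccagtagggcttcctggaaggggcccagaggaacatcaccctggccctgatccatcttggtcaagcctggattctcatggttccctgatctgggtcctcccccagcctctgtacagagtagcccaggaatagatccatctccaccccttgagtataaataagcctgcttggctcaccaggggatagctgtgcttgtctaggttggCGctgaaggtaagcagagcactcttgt
Cd79a, chr7:24897247-24897546, + strand: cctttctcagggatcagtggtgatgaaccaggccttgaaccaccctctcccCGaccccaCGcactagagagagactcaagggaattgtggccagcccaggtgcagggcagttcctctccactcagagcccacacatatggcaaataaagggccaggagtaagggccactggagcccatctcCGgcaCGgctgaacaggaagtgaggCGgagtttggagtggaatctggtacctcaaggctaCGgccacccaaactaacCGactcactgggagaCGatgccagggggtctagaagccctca
They hold 2, 8, 1 and 8 CG in that order, against a median of 7 in 32851 promoters of this length. The letters TATAAA were searched on both strands, were found in the Agt promoter and not in the other three, and are held by 13.6% of all promoters of this length.

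Agt, which encodes angiotensinogen, the precursor of the blood pressure hormone angiotensin, was the only adipokine called of 13 tested (2 with the 12-library spread). Agt (chromosome 8, 124556587 to 124569706) was at 105, 178 and 201 FPKM in epididymal and 10.8, 28.5 and 25.5 FPKM in inguinal libraries, 161 ± 50.2 against 21.6 ± 9.45 (SD, n = 3 each) and 7.47-fold higher (limma log2 2.93, SE 0.41, adjusted p = 0.035). On the high-fat diet the log2 difference was 3.69 (adjusted p = 0.0007), with 30.2 to 79.3 against 1.502 to 4.89 FPKM. Inguinal replicate 1, which had the highest adipocyte, fibroblast, matrix and macrophage markers and the lowest lymphocyte markers of its group, had the highest inguinal value and still lay below every epididymal one.

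Genes of other secreted proteins and receptors were higher in the epididymal libraries. Penk, the precursor of the opioid peptides enkephalins, was at 36.8, 63.7 and 39.5 against 6.63, 8.96 and 6.47 FPKM (log2 2.56, SE 0.29, limma adjusted p = 0.018). Oxtr, the oxytocin receptor, was at 11.04, 9.63 and 16.7 against 1.21, 2.71 and 1.54 FPKM (2.50, SE 0.35, adjusted p = 0.035). Neither gene's groups overlapped between the depots. The complement component C6 was at 28.3, 45.4 and 52.8 against 2.80, 7.61 and 2.04 FPKM (3.34, adjusted p = 0.035). Col6a5, a chain of collagen VI, was at 8.63, 13.5 and 6.74 FPKM against 0.0562, 0.397 and 0 (3.95, adjusted p = 0.016). The largest log2 difference among epididymal calls was 4.13 for Serpina3b (adjusted p = 0.016), a member of a serpin family with near-identical copies that share reads, so its value is uncertain.

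Enzymes and membrane proteins made up most of the remaining epididymal calls. Gsta3, a glutathione transferase of detoxification, was at 77.0, 120 and 155 against 15.5, 21.3 and 16.5 FPKM (log2 2.65, SE 0.30, limma adjusted p = 0.018). Hpgd, which inactivates prostaglandins, was at 54.4, 41.7 and 46.8 against 13.9, 16.3 and 9.78 FPKM (1.82, SE 0.26, adjusted p = 0.036). Jup, the junction protein plakoglobin, was at 89.4, 122 and 118 against 41.2, 41.2 and 38.7 FPKM (1.42, SE 0.23, adjusted p = 0.046), the smallest difference among the epididymal calls. In these genes all inguinal libraries lay below all epididymal ones, and the groups of all 62 calls were likewise without overlap. Adcyap1r1 (the receptor for the neuropeptide PACAP), Ccbe1 (a secreted factor of lymphatic growth), Reep6, Atp6v0e2 (a proton pump subunit), Rnf144b (a ubiquitin ligase) and Pcbd1 (an enzyme of biopterin recycling) had log2 differences of 2.12, 2.37, 2.22, 2.19, 2.33 and 1.63.

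The 3 myeloid genes among the epididymal calls were not among the 12 macrophage markers. Ear2, a ribonuclease of eosinophils and macrophages from a family with near-identical copies, was at 33.7, 38.3 and 29.04 against 3.72, 2.06 and 2.20 FPKM (log2 3.46, SE 0.29, limma adjusted p = 0.016). Lyz1, a lysozyme with a close copy in Lyz2, was at 37.8, 61.5 and 28.8 against 8.93, 5.48 and 2.31 FPKM (2.93, SE 0.46, adjusted p = 0.044). Mmp12, the elastase of macrophages, was at 15.1, 15.2 and 9.96 against 1.04, 1.92 and 1.53 FPKM (2.80, SE 0.32, adjusted p = 0.018). All 12 macrophage markers passed the filter and 0 were called by limma (2 epididymal and 0 inguinal with the 12-library spread; 5 and 1 at an unadjusted p under 0.05), with a median log2 difference of 1.06. Their summed FPKM was 550.7, 982.4 and 488.9 in epididymal libraries and 207.5, 568.3 and 212.5 in inguinal ones, so that inguinal replicate 1 lay within the epididymal range. Against inguinal replicate 1 alone, which is then assumed to vary like the epididymal libraries, the median of the macrophage markers was −0.30, and Ear2, Lyz1 and Mmp12 kept log2 differences of 3.73, 2.78 and 2.50. On the high-fat diet these 3 genes were again called epididymal. So were 10 of the 12 macrophage markers there (0 inguinal, median log2 difference 2.05), against 15.2% of genes tested.

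Lymphocyte genes gave the largest inguinal differences. Cd79a (ENSMUSG00000003379, chromosome 7, 24897497 to 24901858), a signalling chain of the B cell receptor, was at 166, 19.1 and 178 FPKM in inguinal replicates 0, 1 and 2 and at 1.61, 2.69 and 1.38 FPKM in epididymal ones, 64.0-fold higher (log2 −5.17, SE 0.77, limma adjusted p = 0.037). Cr2, the complement receptor of B cells, was at 19.7, 2.35 and 11.8 against 0.115, 0.0189 and 0 FPKM (−4.04, SE 0.66, adjusted p = 0.048). In both genes replicates 0 and 2 stood far above replicate 1, and replicate 1 stood above all epididymal libraries. Cr2 passed the filter only through the inguinal libraries, which fixed its direction. Of the 15 B cell markers, all tested, 3 were called inguinal and 0 epididymal (14 and 0 with the 12-library spread), with a median of −4.20. Of all genes tested, 0.268% were called inguinal, and 4.8% with the 12-library spread. Ms4a1, the B cell antigen CD20, was at 73.8, 6.14 and 60.8 against 0.734, 1.44 and 0 FPKM and did not pass (adjusted p = 0.062).

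T cell markers were high in the same libraries and none was called. Of the 15, all tested by limma, 14 had an unadjusted p under 0.05 and 13 were called inguinal with the 12-library spread, as 4.8% of all genes tested were. Their mean log2(FPKM + 0.5) was −0.271 to 0.202 in epididymal libraries, near the filter. Some may thus have passed it only through the inguinal libraries, which would fix their direction. Their median log2 difference was −3.59. Their summed FPKM was 208.5, 36.04 and 721.6 in inguinal and 8.58, 11.96 and 9.517 in epididymal libraries. Cd3e, Cd3d and Cd3g, chains of the T cell receptor complex, had log2 differences of −4.07, −3.57 and −4.44 and adjusted p of 0.089, 0.17 and 0.094. Other genes of lymphocytes were called. Ly6d was at 128, 11.6 and 93.4 FPKM in inguinal libraries against at most 0.951 in epididymal ones (−5.72, SE 0.84, adjusted p = 0.036), the largest difference of all calls. Fcmr, the receptor for IgM, was at 83.0, 8.50 and 117 against 0.454 to 0.708 FPKM (−5.38, SE 0.83, adjusted p = 0.042). Ltb (lymphotoxin beta), H2-Ob (a class II chaperone of B cells), Btla (an inhibitory receptor), Ikzf3 (a lymphocyte transcription factor) and Nkg7 (a granule protein of cytotoxic cells) had log2 differences of −4.86, −5.03, −4.83, −3.83 and −3.14. The T cell receptor segments Trbc1 and Trbv13-2 and the immunoglobulin light chain gene Iglc2 had −4.33, −4.83 and −4.58, and such segments share reads with near-identical copies.

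The inguinal calls fell into genes that stood high in the same inguinal libraries as the lymphocyte markers and genes that did not. In 20 of the 37, replicates 0 and 2 were both at least 2-fold above replicate 1, as all 15 B cell and all 15 T cell markers were, while 8.83% of all genes tested showed this. In 9 of the 37, replicate 1 was the highest inguinal library (41.7% of all genes tested). These 9 were Tbx15, Hoxc10, Cyp2f2, Irf7, H2-Q10, Il1r2, Plac8, Zbp1 and 1 immunoglobulin light chain segment. Against inguinal replicate 1 alone, all 62 calls kept differences of at least 2-fold. All 62 also did within the 4 libraries whose mitochondrial tRNA genes were listed at 0, which leave inguinal replicate 0 alone. Their direction was fixed in both comparisons, because the groups of all 62 did not overlap.

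Tbx15 and Hoxc10 were the 2 positional factors called inguinal. Tbx15 (ENSMUSG00000027868, chromosome 3, 99240348 to 99354260), a T-box factor known for its subcutaneous pattern in fat, was at 2.79, 5.71 and 3.83 FPKM in inguinal replicates 0, 1 and 2 and at 0.196, 0.0675 and 0.0857 FPKM in epididymal ones, 35.3-fold higher (log2 −2.86, SE 0.38, limma adjusted p = 0.035). Hoxc10 (chromosome 15, 102966796 to 102971898), a posterior HOX gene, was at 6.75, 12.4 and 7.56 against 0.722, 0.801 and 0.473 FPKM, 13.4-fold higher (−2.98, SE 0.34, adjusted p = 0.018). Both were highest in replicate 1, the inguinal library with the lowest lymphocyte markers and the highest adipocyte, fibroblast and progenitor, matrix and macrophage markers, and the part of these cells in both genes was not tested. Against that library alone the log2 differences were −3.34 and −3.48. They are larger because both genes were highest in it, and 1 library gives the inguinal group no spread of its own. Shox2, a homeobox factor of limb development, was at 3.38, 10.9 and 3.61 against 0.503, 0.585 and 0.454 FPKM and did not pass with all 6 libraries (−2.48, limma adjusted p = 0.064). It was also highest in replicate 1, and against that library alone its log2 difference was −3.49.

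The remaining genes highest in inguinal replicate 1 were metabolic and immune genes. Cyp2f2, a cytochrome P450 enzyme, was at 70.0, 99.1 and 78.3 against 18.9, 26.1 and 31.3 FPKM, 3.24-fold higher (limma log2 −1.69, SE 0.27, adjusted p = 0.044). Irf7, the main transcription factor of the type I interferon response, was at 37.9, 66.2 and 59.1 against 13.1, 16.4 and 11.96 FPKM (−1.91, SE 0.28, adjusted p = 0.036). H2-Q10, a secreted class I molecule with near-identical family members, was at 42.1, 64.7 and 31.9 against 8.11, 10.8 and 14.01 FPKM (−1.997, SE 0.33, adjusted p = 0.048). In these genes all 3 inguinal libraries lay above all epididymal ones. Replicate 1 also held more lymphocyte RNA than the epididymal libraries. Against it alone the median log2 differences of the B cell and T cell markers were −2.4 and −1.53. Il1r2, the decoy receptor for interleukin 1, was at 9.44, 28.4 and 9.12 FPKM against 0.188, 0 and 0 (−4.66, SE 0.47, adjusted p = 0.016). The summed FPKM of 5 neutrophil markers was likewise highest in inguinal replicate 1 (12.68, 64.84 and 9.47, against 4.385 to 22.74 in epididymal libraries), and among the inguinal libraries so was that of the macrophage markers given above. Plac8 was at 60.5, 94.0 and 44.5 against 6.22, 8.34 and 8.59 FPKM (−2.97, SE 0.31, adjusted p = 0.016), and Zbp1, an interferon-induced sensor of nucleic acids, at 13.2, 26.6 and 19.9 against 2.37, 3.11 and 1.36 FPKM (−2.87, SE 0.36, adjusted p = 0.029). Other genes of interferon or lymphoid responses, Trim30b, Slfn1, Slfn8, Ifi213, Cd40 and Ly6c2, had log2 differences of −2.60, −3.28, −1.96, −3.86, −2.22 and −3.15. Of these 6, only Ifi213 and Ly6c2 had both lymphocyte-rich replicates at least 2-fold above replicate 1. The part of lymphocytes, macrophages and neutrophils in Irf7, Plac8, Zbp1 and Il1r2 was not tested.

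**Figure D3:**
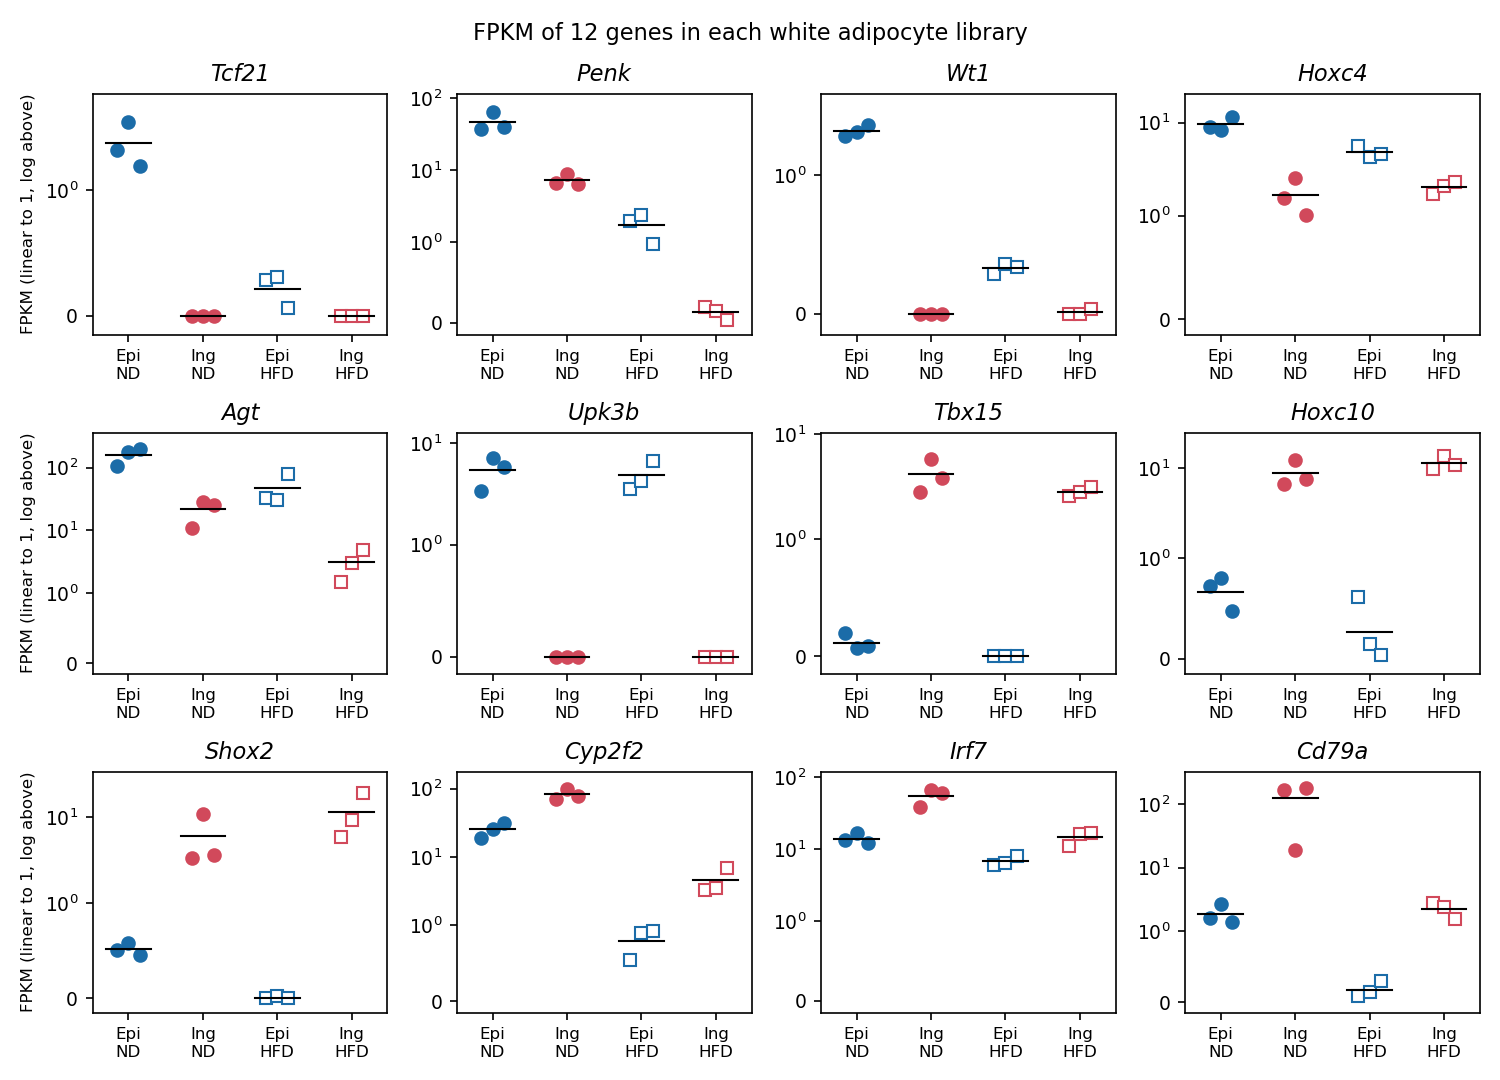
FPKM (vertical axis, linear up to 1 and logarithmic above, a scale per panel) of 12 genes in each library, with the group mean as a line (n = 3) for epididymal (Epi) and inguinal (Ing) adipocytes on the normal (ND) and high-fat (HFD) diets; filled circles are normal-diet and open squares high-fat libraries, blue epididymal and red inguinal. Tcf21, Wt1 and Upk3b were at or near 0 in all inguinal libraries, Tbx15 and Hoxc10 stood low in all epididymal ones, and Cd79a stood lower in inguinal normal-diet replicate 1 (19.1 FPKM) than in replicates 0 and 2 (166 and 178 FPKM).

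Most positional genes beside these were not called. Of 39 HOX genes listed, 38 were in the files, 25 passed the filter, and Hoxc4 was called epididymal and Hoxc10 inguinal (5 and 2 with the 12-library spread), with a median log2 difference of 0.22. Hoxa5 was at 5.81, 4.66 and 4.10 against 2.80, 1.46 and 0.934 FPKM (1.34, adjusted p = 0.16) and Hoxc9 at 1.497, 2.04 and 0.929 against 1.56, 2.46 and 1.02 FPKM (−0.12, adjusted p = 0.91). Hoxa10, chosen after its values were seen, was at 4.33, 6.96 and 0.518 in inguinal and 0.559, 0.269 and 0 FPKM in epididymal libraries (−2.16, adjusted p = 0.22). Its inguinal replicate 2 overlapped the epididymal range. Of 44 other patterning factors, 25 passed the filter and Tcf21 and Tbx15 were called, 1 each way (6 and 5 with the 12-library spread), with a median of 0.46. On the high-fat diet 12 of 24 tested HOX genes were called inguinal and 1 epididymal, and 10 of 21 other factors were called inguinal and 0 epididymal, where 8.07% of all genes tested were called inguinal and 15.2% epididymal. En1 was below the filter on the normal diet.

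The mature adipocyte programme was not called in either direction. Of 19 mature adipocyte markers, all tested, 0 were called by limma, 0 with the 12-library spread and 0 had an unadjusted p under 0.05, and the median log2 difference was 0.49. Adipoq was at 1360, 1999 and 2386 FPKM in epididymal and 919, 2015 and 994 FPKM in inguinal libraries (0.61, SE 0.45, limma adjusted p = 0.58). Lep, the fat-mass hormone leptin, was at 191, 210 and 213 against 98.1, 207 and 87.6 FPKM (0.75, SE 0.35, adjusted p = 0.37). Plin1 (a lipid droplet coat protein) had a difference of 0.42 and Cidec (a droplet fusion protein) of 0.98, with adjusted p of 0.71 and 0.40. In each of these 4 genes inguinal replicate 1 lay within the epididymal range or above it, and replicates 0 and 2 lay lower than replicate 1. Against replicate 1 alone the median of the 19 markers was −0.21. The lower level of replicates 0 and 2 moved with their higher lymphocyte markers, with their higher mitochondrial mRNA share (51.9 and 60.5%, against 20.5% in replicate 1) and with erythroid markers, whose summed FPKM was 1072, 315.8 and 4851 in replicates 0, 1 and 2. The part of these in the list's median was not tested.

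Metabolic gene lists showed few calls. Of 14 tested lipogenesis genes, 16 of lipolysis and adrenergic signalling, 18 of fatty acid oxidation and 15 of insulin signalling, 0 were called in each, with median log2 differences of 0.14, 0.43, 0.29 and 0.21. By limma with the 12-library spread these lists had 0, 1, 0 and 0 calls, and 1, 2, 0 and 1 of their genes had an unadjusted p under 0.05. Fasn, the fatty acid synthase, was at 196, 231 and 368 against 319, 409 and 282 FPKM (−0.38, SE 0.32, adjusted p = 0.63), and Pnpla2, the main triglyceride lipase, at 1010, 1563 and 1375 against 878, 1762 and 700 FPKM (0.33, SE 0.44, adjusted p = 0.76). Of 22 genes of retinoid, steroid and drug metabolism, 18 were tested and Cyp2f2 was called inguinal (4 epididymal and 1 inguinal with the 12-library spread). Aldh1a1, which makes retinoic acid and was chosen after its values were seen, was at 73.3, 88.4 and 95.5 against 23.5, 35.4 and 16.9 FPKM and did not pass (1.796, adjusted p = 0.051). Of 30 Wnt, BMP and TGF-beta genes, 22 were tested, 1 was called epididymal and 0 inguinal (5 epididymal and 0 inguinal with the 12-library spread). Nog, a BMP inhibitor chosen after its values were seen, was at 3.24, 2.92 and 1.51 against 0.0965, 0.187 and 0 FPKM (2.32, adjusted p = 0.054).

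Genes of thermogenic and beige adipocytes were not called in either direction. Of 18 listed, 12 were tested and 0 called by limma (1 epididymal and 3 inguinal with the 12-library spread, and the same counts at an unadjusted p under 0.05). Of the 12, 10 had higher inguinal and 2 higher epididymal values, with a median log2 difference of −0.60. Cidea, a droplet protein of brown and beige fat, was at 13.9, 18.4 and 4.29 FPKM in inguinal and 1.82, 3.70 and 2.22 FPKM in epididymal libraries (−1.87, SE 0.52, limma adjusted p = 0.16). Cox8b, a respiratory subunit of brown and beige fat chosen after its values were seen, was at 80.5, 153 and 52.6 against 19.8, 24.9 and 5.38 FPKM (−2.59, SE 0.58, adjusted p = 0.098). Neither gene's groups overlapped. Ucp1, the uncoupling protein of these cells, was below the filter. In the high-fat libraries 4 of 14 tested thermogenic genes were called inguinal and 0 epididymal, against 8.07% and 15.2% of all genes tested. Cidea was among the 4 (log2 −2.69, limma adjusted p = 0.0016).

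Markers of the remaining cell types were called in neither direction on the normal diet. Of 11 endothelial markers, all tested, 0 were called with either spread and 1 had an unadjusted p under 0.05. Pecam1, an endothelial adhesion molecule, was at 70.3, 89.1 and 65.4 against 73.3, 62.0 and 91.9 FPKM (log2 −0.01, limma adjusted p = 0.99). On the high-fat diet all 11 were called inguinal, as 8.07% of genes tested were. All 11 differed between the diets in the interaction test, as 2.42% of genes tested did in that direction. MHC class II genes, which present antigen in B cells and macrophages, were highest in inguinal replicates 0 and 2. Their summed FPKM was 2429, 761.2 and 2496 in inguinal and 693, 1376 and 751.2 in epididymal libraries, and 0 of 7 were called on the normal diet (1 inguinal with the 12-library spread and 1 at an unadjusted p under 0.05). All 7 were called epididymal on the high-fat diet, as 15.2% of genes tested were, and 6 of them differed between the diets in the interaction test with the more inguinal value on the normal diet, as 4.80% of genes tested did. Of 12 fibroblast and progenitor markers, 6 mural, 23 matrix, 12 mitochondrial mRNA and 15 immediate early genes tested by limma, 0 were called in each. With the 12-library spread 2, 1, 1, 0 and 1 of them were called, and 6, 3, 2, 0 and 1 had an unadjusted p under 0.05.

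Calls of both directions were met again in the high-fat libraries, 17 epididymal and 8 inguinal. Of the 25 epididymal calls, 21 were tested there and 17 were again called epididymal, which is 68.0% of the normal-diet and 0.830% of the 2048 high-fat epididymal calls. Of the 37 inguinal calls, 21 were tested and 8 were again called inguinal, 21.6% of the normal-diet and 0.733% of the 1091 high-fat inguinal calls. Calls not tested on the high-fat diet count as not met again in these percentages. Of all genes tested there, 15.2% were called epididymal and 8.07% inguinal. Of the calls made with the 12-library spread, the shares were lower, 147 of 373 epididymal (39.4%) and 93 of 663 inguinal (14%). The 8 were Tbx15, Hoxc10, Cyp2f2, Irf7, H2-Q10, Cd79a, Fcmr and Ly6d. The last 3 of these are lymphocyte genes, and their high-fat inguinal values were at most 3.42 FPKM. The 20 genes that moved with the lymphocyte markers among the inguinal libraries made up 3 of these 8 and 17 of the other 29. Among the 17 epididymal calls met again were the myeloid genes Ear2, Lyz1 and Mmp12 and the mesothelial markers Upk3b and Msln. The part of carried cells in the 17 was not tested. Gsta3, Adcyap1r1 and Jup were not called on the high-fat diet, and Tcf21, Wt1 and Ccbe1 were among the 4 epididymal calls below its filter.

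The opposite call on the high-fat diet was met for 1 epididymal and 2 inguinal calls. With the 12-library spread it was met for 28 of 373 epididymal and 124 of 663 inguinal calls, and for the inguinal ones this was more than the 93 with the same call. Hpgd was at 22.9, 25.8 and 19.05 FPKM in epididymal and 34.9, 35.5 and 32.98 FPKM in inguinal high-fat libraries (log2 −0.61, limma adjusted p = 0.015). Sorl1, a sorting receptor also present in leukocytes, was inguinal on the normal diet (2.79, 2.89 and 2.91 against 21.1, 10.0 and 20.5 FPKM, −2.32, adjusted p = 0.036) and epididymal on the high-fat diet (0.62, adjusted p = 0.024). Dok3, an adaptor protein of B cells and macrophages, went from −3.47 (adjusted p = 0.041) to 1.17 (adjusted p = 0.042). The difference between the diets itself passed the interaction test for 44 of the 62 calls, 30 inguinal and 14 epididymal, against 7.22% of all genes tested. The calls were chosen by the normal-diet difference, which is 1 term of this test, so that choice raises their share. The interaction passed for 28 of the 29 inguinal calls without the same call on the high-fat diet. Those 29 were chosen for that lack and include genes below the high-fat filter. It passed for 6 of the 17 epididymal calls with the same call. The interaction did not pass for Tbx15, Hoxc10, Cyp2f2, Irf7, H2-Q10 and Cd79a (adjusted p of 0.89, 0.19, 0.79, 0.16, 0.62 and 0.062) or for Agt, Upk3b, Msln and Mmp12 (0.57, 0.88, 0.99 and 0.86).

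**Figure D4:**
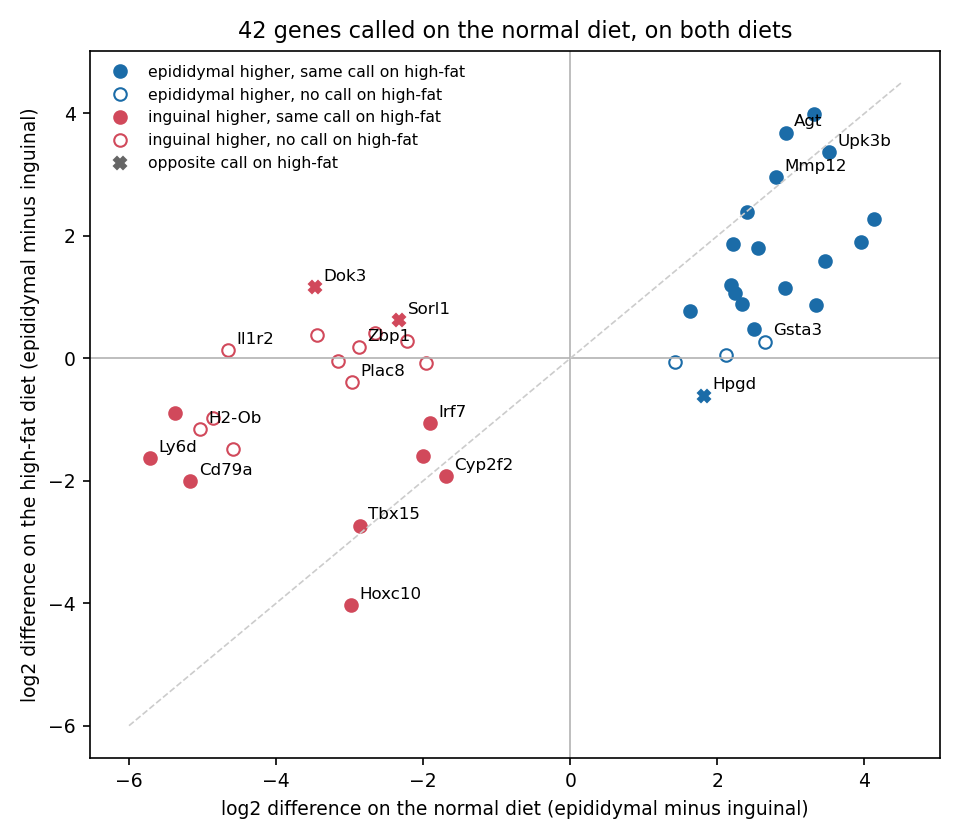
Log2 difference, epididymal minus inguinal, on the normal diet (horizontal axis) and on the high-fat diet (vertical axis) for the 42 normal-diet calls that were tested on both diets; filled circles have the same call on the high-fat diet, open circles no call and crosses the opposite call, and the dashed line marks equal differences. Agt, Upk3b, Mmp12, Tbx15, Hoxc10 and Cyp2f2 lie near the line, while Cd79a, Ly6d and Il1r2 lie far from it.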

How the data were processed

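The sequenced RNA was poly(A) RNA of floating adipocyte layers, per the labels' protocols. TopHat2 2.0.9, Cuffdiff 2.1.1 and the mm10 build are named in the submitters' processing notes. Values deposited by the authors were treated as FPKM: no header states a unit, and Cuffdiff and the values point to it. The annotation, strand setting and normalization are not given in the sources used here. FPKM cannot be turned into counts, so depth is unknown and precision rests on replicates. A value of 0 can be a failed estimate, so such genes are called listed at 0 and get no fold.

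Groups came from sample titles. Limma 3.58.1 in R 4.3.3 (lmFit, then eBayes with its trend option) took log2(FPKM + 0.5), which understates changes of low genes, for the 6 normal-diet libraries, the 6 high-fat libraries (13518 genes at the same filter) and, for the interaction of diet and depot, all 12 (14959 genes). The code was tested on simulated data. Brown adipocyte libraries were not used here, and results on some single genes, which stayed in every test and count, are not reported here. The members and gene lists were chosen with earlier results of these data known. Genes could be named by a rule: up to 12 calls each way by size of difference, if the groups did not overlap and the higher group averaged 2 FPKM or more, up to 12 each way that were also called on the high-fat diet, called and first-listed members of each list, and Lep, Adipoq, Ucp1, Mest, Wt1, Tcf21, Tbx15, Shox2, En1, Hoxa5, Hoxc9 and Hoxc10. Further calls (among them Hpgd, Jup, Plac8, Zbp1, Sorl1, Dok3 and those listed by log2 difference alone), and Aldh1a1, Nog, Cox8b, Hoxa10 and Irx3, were named after their values were seen. Symbols were matched for 36638 of 38553 identifiers, and coordinates and promoters are those of RefSeq on GRCm38.p6. Alternatives varied the pseudocount, filter, scaling, spread, weights, replicate block and libraries; scaling to mature adipocyte genes was chosen after seeing the data.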

Additional observations from a re-analysis of the deposited data

Results flagged for a closer look

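Each gene given here is flagged because its depot difference, epididymal minus inguinal, differed between the diets in the interaction test (limma, 12 white libraries, Benjamini-Hochberg adjusted p under 0.05 over 14959 genes). A value is the normal-diet log2 difference minus the high-fat one. Of all genes tested, 7.22% passed this test. It uses the normal-diet libraries of the report, so it is no separate measurement of them. Its spread is shared by all 12 libraries and can be too small for the inguinal normal-diet ones.

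Genes of lymphocytes had lower, more inguinal values on the normal diet. The B cell genes Cr2, Ly6d, Fcmr and H2-Ob had −3.38, −4.10, −4.49 and −3.87. For Ltb, Btla, Ikzf3 and Nkg7 the values were −3.89, −4.24, −3.56 and −2.52, and for the T cell receptor genes Trbc1 and Trbv13-2 they were −4.34 and −4.83. For Cd40, Dok3, Ly6c2 and Sorl1 they were −2.51, −4.64, −3.11 and −2.95. The summed FPKM of B cell markers was 105.9 to 915 in inguinal normal-diet libraries and 15.05 to 32.52 in inguinal high-fat ones, and the part of lymphocytes in these values was not tested. The interferon-linked genes Zbp1, Trim30b, Slfn1, Slfn8 and Ifi213 had −3.06, −2.20, −3.27, −1.88 and −3.72, and Il1r2 and Plac8, which were highest in inguinal replicate 1 and above all epididymal libraries in each inguinal one, had −4.79 and −2.58.

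Among genes with higher, more epididymal values on the normal diet were Wt1, Tcf21, Hoxa5, Hoxc9 and Irx3, with 1.77, 2.07, 2.09, 1.75 and 2.91. Secreted and receptor genes were Col6a5, C6, Ccbe1, Oxtr and Adcyap1r1, with 2.05, 2.46, 1.39, 2.01 and 2.07. Enzymes and other genes were Gsta3, Hpgd, Aldh1a1, Jup, Pcbd1, Rnf144b and Mest, with 2.37, 2.43, 1.55, 1.48, 0.86, 1.45 and 2.71. The value for Ear2 was 1.87 and that for Pecam1, an endothelial marker, 2.09.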

How the results depend on the processing

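No called gene named in the text changed direction under any setting run. With libraries left out this had to be so, because the groups of the called genes did not overlap. The counts of calls (25 epididymal, 37 inguinal, 25 of these 62 with the same call on the high-fat diet, in this order below) depended on the spread and on single libraries. Without a filter they were 0, 0 and 0 (2337 genes at an unadjusted limma p under 0.05), and with the 12-library spread 373, 663 and 151. Array weights gave 1488, 1073 and 417 and shifted the median of all genes to 0.17. Scaling to mature adipocyte genes, chosen after seeing the data, gave 6, 8 and 9 and shifted it to −0.37, with the medians of the HOX, endothelial, lipogenesis, fatty acid oxidation, insulin and matrix lists below 0 and above that shift. Leaving out 1 normal-diet library gave 0 to 314, 0 to 745 and 0 to 161: the counts were 0 without any epididymal one, 314 and 745 without inguinal replicate 1, 7 and 6 without replicate 2, and 29 and 46 without replicate 0. Inguinal replicate 1 alone gave 12, 29 and 27. The 4 libraries with mitochondrial tRNA listed at 0 gave 37, 298 and 38. Both of these settings leave 1 inguinal library, which has no spread of its own. A pseudocount of 0.1 gave 61 inguinal calls. Epididymal against inguinal calls were 20 and 15 with TMM scaling, 26 and 20 with quantile normalization and 19 and 15 when scaled to nuclear RNA, against 25 and 37 as deposited. The interaction count was 1080, 695 without a filter and 433 to 2627 with 1 library left out, the highest without inguinal normal-diet replicate 1. The causes were not tested. Same-numbered libraries correlated in their deviations at 0.236, 0.039 and 0.094, and differently numbered ones at −0.181 to 0.041. Each epididymal library correlated best with the inguinal library of its own number. Inguinal replicate 1 correlated about equally with epididymal replicates 1 and 2 (0.039 and 0.041). Whether libraries of the same number belong together was not tested. With the number as a replicate block the counts were 5, 0 and 5, and the interaction count 1152. Depth is unknown, and precision is limited by 3 libraries a group.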

Other observations

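The imprinted gene Mest, a marker of expanding fat, was at 67.1, 96.1 and 139 FPKM in epididymal and 11.7, 44.8 and 6.95 FPKM in inguinal normal-diet libraries. The groups did not overlap and the difference did not pass (log2 2.60, SE 0.61, limma adjusted p = 0.11; 0.012 with the spread of 12 libraries). Irx3, an Iroquois homeobox factor, was at 2.97, 3.26 and 3.42 against 0.781, 0.716 and 0.360 FPKM on the normal diet (1.75, adjusted p = 0.072) and at 0.844, 0.773 and 0.913 against 1.93, 3.46 and 2.31 FPKM on the high-fat diet (−1.16, adjusted p = 0.0089). Its depot difference had the opposite sign on the high-fat diet.

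Schwann cell markers, which mark the glia of nerve bundles, had higher inguinal values. Of 5 listed, 4 were tested, 0 were called by limma, and all 4 were called inguinal with the 12-library spread and had an unadjusted p under 0.05. Their median log2 difference was −1.21, and on the high-fat diet 2 of 3 tested were called inguinal, as 8.07% of all genes tested were. Of 6 markers of lymph node stroma and high endothelial venules, 3 were tested and 0 were called by limma (1 inguinal with the 12-library spread, and 1 at an unadjusted p under 0.05). On the high-fat diet 1 marker was tested and was called epididymal, as 15.2% of all genes tested were. Of the 3 tested on the normal diet, 2 had higher epididymal values and 1 a higher inguinal one, with a median log2 difference of 0.13. The inguinal one was Cxcl13, a chemokine that draws B cells and is made by lymph node stroma, which was at 12.3, 104 and 11.8 FPKM in inguinal and 2.39, 2.13 and 0.119 FPKM in epididymal normal-diet libraries (log2 −3.92, limma adjusted p = 0.099). It was highest in inguinal replicate 1, where the B cell markers were lowest. The summed FPKM of 7 markers of epididymis epithelium was 40.43 in epididymal replicate 2 and at most 0.2917 in the other 5 normal-diet libraries.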
